A study of Mus musculus with 18 samples.

Results

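The mitochondrial respiratory chain and its ATP synthase were followed through 96 protein-coding genes of the 46167 genes summed from the transcript tables. Members were chosen by symbol in GENCODE M21: the Nduf genes of the a, b, c, s and v series, Sdha to Sdhd, the Uqcr genes, the nuclear cytochrome oxidase genes from Cox4 to Cox8 whose number is followed by a, b or c, the Atp5 genes, and every gene with the mt- prefix. They were chosen by symbol alone, with no measured value in the rule. Of the 96, 83 lie in the nucleus (37 named for complex I, 4 for complex II, 8 for complex III, 16 for complex IV and 18 for complex V) and 13 in the mitochondrial genome (7, none, 1, 3 and 2). The expression filter kept 91 members. The 5 that did not pass it were Cox6a2, Cox7b2, Cox8b, Cox8c and a second annotated locus of Atp5o, none of which summed to more than 38 estimated reads over the 9 libraries of a day.

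Hematopoietic progenitors enriched from livers of E14.5 CD-1 mouse embryos were transduced with retroviral short hairpin RNAs, and RNA was sequenced from 18 libraries in 6 groups of 3. The groups were Day 2 PCBP2 knockdown, Day 2 PCBP1 knockdown, Day 2 control, Day 0 PCBP2 knockdown, Day 0 PCBP1 knockdown and Day 0 control. Day 0 cells had spent 48 hours after transduction in an expansion medium with SCF, dexamethasone and erythropoietin, and Day 2 cells a further 2 days in a differentiation medium with serum and more erythropoietin. Every library, the controls included, came from cells carrying the same puromycin-IRES-GFP retroviral vector. The 3 libraries of a knockdown group carried different hairpins (numbered 1, 3 and 4). Among the controls, LUC-1 carried a hairpin against luciferase, and SCR-1 and SCR-2 carried scrambled sequences. Separate cultures are not stated in the labels. Every p-value given here therefore rests on the variation among these libraries alone, some of which may be technical.

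PCBP1 and PCBP2 are related proteins that bind cytosine-rich RNA and also carry iron to client proteins. The respiratory chain passes electrons from NADH (complex I) or succinate (complex II) through complex III to oxygen at complex IV, and complex V uses the resulting proton gradient to make ATP. Its subunits come from both genomes, except those of complex II, which are all nuclear. Several carry iron, as iron-sulfur clusters or heme. Red cell precursors make heme in their mitochondria and clear the organelles late in maturation.

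The libraries held 26949544 to 37899065 estimated reads at Day 2 and 30479274 to 53784444 at Day 0. Normalised read counts are given in CPM (counts-per-million after TMM scaling), and levels of different genes are compared only in the deposited TPM (transcripts-per-million, corrected for length). Pcbp2 stood at 37.0 to 48.0 CPM in Day 2 PCBP2 knockdown libraries and 224.7 to 247.2 CPM in Day 2 control libraries. Pcbp1 stood at 15.7, 57.2 and 40.4 CPM with hairpins 1, 3 and 4 against it at Day 2 and at 241.5 to 283.6 CPM in Day 2 controls. Globin reads made up 24.7% to 33.5% of the libraries at Day 2 and 0.302% to 0.486% at Day 0, and all 8 erythroid markers rose between the days. The summed level of 4 progenitor markers was 21.3 to 28.9 CPM at Day 2 and 490.1 to 594.9 CPM at Day 0. Markers of other cells were present too. Of 5 neutrophil genes 3 rose and 2 fell (log2 -5.97 to 5.08 in controls), and their sum was 669.6 to 1016 CPM at Day 2 and 800.5 to 921.6 CPM at Day 0. That of 4 megakaryocyte genes was 511.7 to 647.8 CPM and 195.4 to 245.3 CPM at the same days. On the TMM scale the 3 tested endothelial and 2 tested lymphoid genes rose and the 3 tested mast cell genes fell in all 3 conditions. Endothelial genes (4) summed to 23.8 to 35.3 CPM at Day 2 and 7.525 to 9.825 CPM at Day 0, lymphoid genes (4) to 7.50 to 19.9 CPM and 0.705 to 1.27 CPM, and mast cell genes (4) to 2.08 to 3.63 CPM and 12.2 to 18.2 CPM. Macrophage genes (5, with Vsig4 without a read at Day 2) summed to 8.80 to 14.4 CPM at Day 2 and 18.5 to 25.3 CPM at Day 0, and hepatocyte genes (5, with Ttr without a read at Day 2) to at most 0.433 CPM and 3.84 CPM. The part of these other cells in the results below was not tested. In such bulk libraries, fewer cells of a type and less RNA per cell cannot be told apart.

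Between Day 0 and Day 2 the share of reads from the respiratory chain shrank in both genomes, and further for the mitochondrial genes. The 13 mitochondrial mRNAs took 0.468%, 0.561% and 0.435% of reads in Day 2 PCBP2 knockdown libraries, 0.674%, 0.531% and 0.609% in Day 2 PCBP1 knockdown libraries and 0.584%, 0.451% and 0.377% in Day 2 controls. The 9 Day 0 libraries lay between 2.91% and 3.17%. No Day 2 library came near any Day 0 library, and the difference of means was -2.48 percentage points (exact permutation test of 9 against 9 libraries within condition, two-sided p = 0.00025, the smallest that its 8000 permutations can give, 0.0018 adjusted over 7 comparisons). The nuclear members took 0.270% to 0.372% of reads at Day 2 and 1.13% to 1.19% at Day 0, a difference of -0.83 percentage points with the same exact p = 0.00025. With globin reads set aside, their share was 0.406% to 0.506% at Day 2 and 1.13% to 1.195% at Day 0. A typical tested gene also became a smaller part of total reads, by an amount given further below. The nuclear drop is therefore not read as particular to the members.

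Globin reads do not enter the ratio of mitochondrial to nuclear member reads, which was 1.37 to 1.87 at Day 2 and 2.45 to 2.71 at Day 0. The ratio was thus lower at Day 2 in all 9 libraries, by -0.72 on the log2 scale (exact permutation p = 0.00025, 0.0018 adjusted over 7). With the reads of near-identical nuclear copies added back (described with the mitochondrial genes), the ratio was 1.83 to 2.38 at Day 2 and 2.92 to 3.22 at Day 0, again without overlap. Among knockdown comparisons within a day, no share or ratio could pass the test, since 3 libraries against 3 cannot give a p below 0.1. The nuclear share at Day 2 was 0.325% ± 0.012 with PCBP2 knockdown, 0.369% ± 0.0036 with PCBP1 knockdown and 0.293% ± 0.021 in controls (SD, n = 3 each), and no knockdown library overlapped the controls (exact permutation p = 0.1 for each knockdown). Globin reads took 24.7% to 28.6% of the knockdown libraries and 27.6% to 33.5% of the controls at that time. Of reads other than globin reads, the nuclear members took 0.428% to 0.474% with PCBP2 knockdown, which overlapped the 0.406% to 0.434% of the controls, and 0.491% to 0.506% with PCBP1 knockdown, which did not. No value for all genes is given on that footing.

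**Figure D1:**
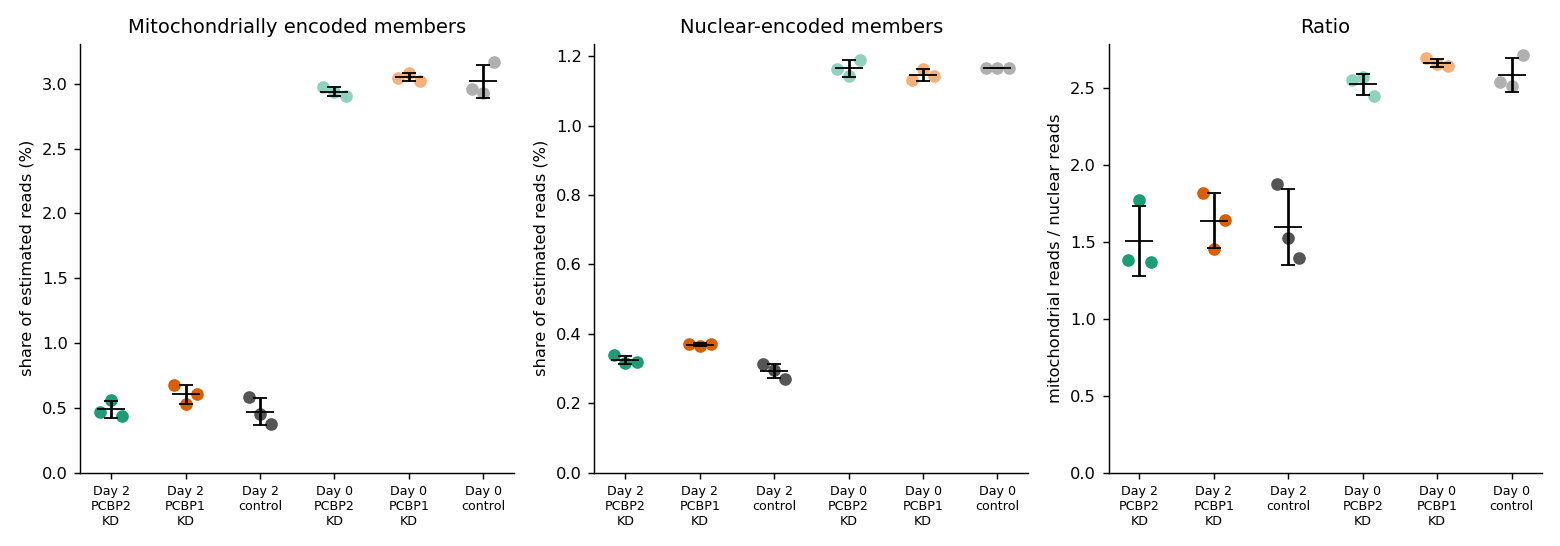
Share of estimated reads (percent) from the 13 mitochondrial and the 83 nuclear members, and the ratio of the 2, for each library (points) with group mean and SD (bars, n = 3). Day 2 groups lie at 0.377% to 0.674% (mitochondrial) and 0.270% to 0.372% (nuclear), below every Day 0 library, and the ratio is lower at Day 2 in all 9 libraries.

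Gene by gene, 12 of the 13 mitochondrial mRNAs fell between Day 0 and Day 2 in controls and none rose, with a median of -1.82 on the log2 scale (edgeR, adjusted p under 0.05). The median over all 17500 tested genes was -0.05, and 42.4% of them fell while 40.4% rose. The deepest fall was that of mt-Nd2, a proton-pumping subunit of complex I, at 279.0, 238.2 and 148.0 CPM in Day 2 controls and 1183, 1179 and 1278 CPM in Day 0 controls. The groups lay far apart, and the fitted log2 change was -2.45 (SE 0.16, edgeR adjusted p = 1.31e-11). The other complex I mRNAs read from the same genome ran from mt-Nd3 at -2.21 and mt-Nd1 at -2.07 through mt-Nd5 at -1.86, mt-Nd6 at -1.82 and mt-Nd4l at -1.70 to mt-Nd4 at -1.51, all called. mt-Cytb, the only mitochondrial subunit of complex III and the carrier of its b hemes, stood at 653.9, 560.2 and 424.2 CPM at Day 2 and 2156, 2126 and 2445 CPM at Day 0 (log2 -2.04, SE 0.13, edgeR adjusted p = 5.44e-13).

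mt-Co1 did not follow. This gene, which encodes the heme-bearing catalytic subunit of complex IV, had 5455, 4546 and 4344 CPM in Day 2 controls and 5041, 4959 and 5393 CPM in Day 0 controls. The groups overlapped, and its log2 change of -0.10 (SE 0.10) was not called (edgeR adjusted p = 0.353). It was not called in PCBP1 knockdown cells (-0.04) or PCBP2 knockdown cells (-0.19) either. mt-Co1 made up 51.0% to 57.9% of mitochondrial mRNA reads at Day 2 and 27.6% to 29.4% at Day 0, with no overlap between the days. The other 12 mRNAs together took 0.159% to 0.320% of all reads at Day 2 and 2.09% to 2.27% at Day 0.

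Some mitochondrial values are affected by copies of mitochondrial DNA on chromosome 1, annotated as unprocessed pseudogenes. mt-Co3 shared 99.9% of its words of 31 bases with Gm28437, mt-Co2 99.5% with Gm28661, mt-Atp6 99.5% with Gm10925, mt-Nd3 98.1% with Gm28438 and mt-Co1 29.6% with Gm29216, so the quantification could divide reads between gene and copy. For mt-Co2 the copy received 158845 estimated reads over the 9 Day 2 libraries and 993723 over the 9 Day 0 libraries, against 36990 and 414609 for the gene itself. mt-Nd3 was listed without a read in 1 Day 2 control (7.01, 0 and 21.4 CPM at Day 2, and 37.9, 42.8 and 47.6 CPM at Day 0). Its log2 change of -2.21 was -2.10 (SE 0.17, edgeR adjusted p = 4.86e-10) with the copy's reads added.

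Adding the copies gave smaller falls for mt-Co2 (-1.20, against -1.67 without them) and mt-Atp6 (-1.01, against -2.14), left mt-Co3 at -0.95 (against -0.996) and mt-Co1 at 0.03, not called. On that footing the 5 genes with the smallest falls were neighbours on the mitochondrial genome: mt-Co1 (5328 to 6872), mt-Co2 (7013 to 7696), mt-Atp8 (7766 to 7969), mt-Atp6 (7927 to 8607) and mt-Co3 (8607 to 9390), all on the plus strand of GRCm38. mt-Atp8, to which no copy's reads were added, had 141.4, 124.9 and 100.6 CPM at Day 2 and 226.3, 225.9 and 254.8 CPM at Day 0 (log2 -0.95). The genes on either side, mt-Nd2 (3914 to 4951) and mt-Nd3 (9459 to 9806), fell by 2.45 and by 2.10. mt-Atp8 and mt-Atp6 share 43 bases at chrM:7927-7969, where reads cannot be given to one gene. The stretch is shown because the values of these neighbours meet in it, and it opens with the start codon of mt-Atp6 (from the GENCODE M21 transcripts, plus strand, no capitals):
mt-Atp8 and mt-Atp6 overlap: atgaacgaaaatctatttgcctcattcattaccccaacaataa

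**Figure D2:**
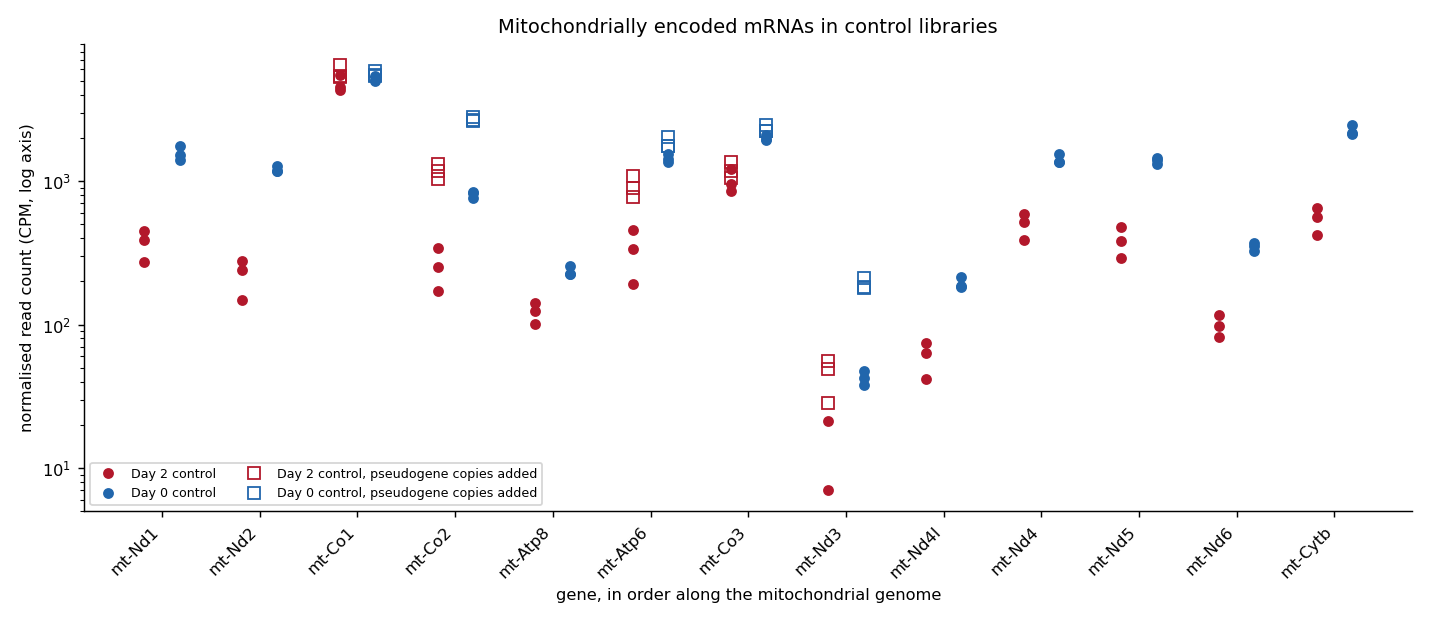
Normalised read count (CPM, log axis) of the 13 mitochondrial mRNAs in order along the genome, in Day 2 controls (red, left) and Day 0 controls (blue, right), 1 point per library, with open squares for values after adding the chromosome 1 copies (a library at 0 is not drawn, mt-Nd3 at Day 2). The days overlap at mt-Co1 and are apart at mt-Nd2, mt-Cytb and the other Nd genes.

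The nuclear members divided. In controls 43 of the 78 tested fell and 22 rose between Day 0 and Day 2 (median log2 -0.50), beside the 42.4% and 40.4% of all genes. In PCBP1 knockdown cells 39 fell and 25 rose (all genes 41.7% and 40.3%), and in PCBP2 knockdown cells 45 fell and 21 rose (42.1% and 40.9%). These directions are relative to TMM scaling. Scaled to library totals, of which globin took up to 33.5%, the median of all genes was -1.68 and the controls gave 74 nuclear members lower and 1 higher, Cox6b2. All 13 mitochondrial mRNAs were then lower. The shares of all genes called under that scaling are not given here, so these counts are not read as particular to the members.

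By complex, the 4 subunits of succinate dehydrogenase (complex II) all fell, with a median of -2.02. Sdha, the flavin-bearing catalytic subunit, had 57.8, 51.4 and 49.4 CPM at Day 2 and 199.8, 196.7 and 203.9 CPM at Day 0 in controls (log2 -1.92, SE 0.09, edgeR adjusted p = 1.35e-15, named for completing the complex after its value was seen). Sdhb, which holds the iron-sulfur clusters, fell by 1.67 on the log2 scale, and the membrane anchors Sdhc and Sdhd, which hold the heme, fell by 2.38 and 2.12.

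Of the 37 nuclear members named for complex I, 24 fell and 7 rose (median -0.85), beside 42.4% and 40.4% of all genes. Complexes were assigned by gene symbol, which counts Ndufa4 and Ndufa4l2 here, although Ndufa4 is now placed in cytochrome oxidase. Ndufb5, an accessory subunit of the membrane arm, showed the deepest fall among all members, with 6.60, 6.49 and 4.25 CPM at Day 2 and 49.7, 47.7 and 52.3 CPM at Day 0 in controls (log2 -3.10, SE 0.13, edgeR adjusted p = 1.62e-16). Its groups were far apart. It shares 12.3% of its exon bases with Mrpl47 on the other strand, and the labels do not state a stranded library. Ndufc2, also of the membrane arm, fell by 2.55.

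The genes for the complex I subunits that hold iron-sulfur clusters or the flavin all fell: Ndufs8 by 1.91, Ndufv1 by 1.78, Ndufs7 by 1.64, Ndufv2 by 0.96 and Ndufs1 by 0.87 on the log2 scale. Ndufs1 fell least of them, with 87.2, 77.2 and 89.1 CPM at Day 2 and 151.9, 151.4 and 160.9 CPM at Day 0. Uqcrfs1, the Rieske iron-sulfur protein of complex III, fell by 1.98. Of the 12 members that carry iron-sulfur clusters or heme, or sit at their binding site, 11 fell (median -1.84, beside 42.4% of all genes), and mt-Co1 was the exception. The count was again 11 of 12 in PCBP1 knockdown cells (median -1.62, beside 41.7%) and in PCBP2 knockdown cells (median -2.08, beside 42.1%).

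Small accessory subunits were among the nuclear members that rose. Ndufa11 had 55.8, 69.6 and 63.4 CPM at Day 2 and 19.4, 22.6 and 21.9 CPM at Day 0 in controls (log2 1.56, SE 0.14, edgeR adjusted p = 2.08e-10). Ndufb11, with 127.0, 121.5 and 146.5 CPM at Day 2 and 44.4, 47.2 and 43.9 CPM at Day 0, rose by 1.54 (SE 0.09, edgeR adjusted p = 1.54e-13). The 2 genes were clear of their Day 0 values in each library, but under library totals they stood at -0.08 and -0.10. Ndufa6 (1.39), Ndufa1 (1.07), Atp5e (1.32, the epsilon subunit of the ATP synthase stalk) and Atp5s (1.24) also rose under TMM scaling, and likewise stood below 0 under library totals, between -0.25 and -0.57. Ndufa11 shares 6.4% of its exon bases with Vmac and Ndufb11 12.9% with Rbm10, each on the opposite strand.

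Complex III had 5 fallers and 1 riser of 8 (median -0.58), complex IV 3 fallers and 7 risers of 12 (median 0.45), and complex V 7 of each of 17 (median 0.01), beside the 42.4% of all genes that fell and the 40.4% that rose. The complex V shares in both directions were near those of all genes. Genes for partner subunits of complex V differed. The alpha and beta subunits, encoded by Atp5a1 and Atp5b, alternate in the catalytic head of the enzyme (both genes were picked after their values were seen). Atp5a1 had 245.1, 250.2 and 239.7 CPM at Day 2 and 836.5, 860.7 and 854.6 CPM at Day 0 in controls, and it fell by 1.80 (SE 0.08, edgeR adjusted p = 4.89e-16). Atp5b had 989.6, 944.8 and 862.6 CPM at Day 2 and 1012, 1029 and 1019 CPM at Day 0, with a log2 change of -0.13 (SE 0.08) that was not called (edgeR adjusted p = 0.133). In TPM, Atp5b exceeded Atp5a1 by 5.20 to 5.50 times in Day 2 controls and by 1.67 to 1.69 times in Day 0 controls. All 9 Day 2 libraries (4.15 to 6.54 times) lay above all 9 Day 0 libraries (1.62 to 1.83 times).

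The same mature c subunit of the ATP synthase rotor is encoded by 3 genes, and all fell: Atp5g2 by 3.07, Atp5g3 by 2.10 and Atp5g1 by 1.76. Atp5g2 had 10.6, 10.6 and 12.98 CPM at Day 2 and 98.0, 99.7 and 88.2 CPM at Day 0. It shares 37.5% of its words with the pseudogene Gm10175, and its fall was 2.86 with that gene's reads added.

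**Figure D3:**
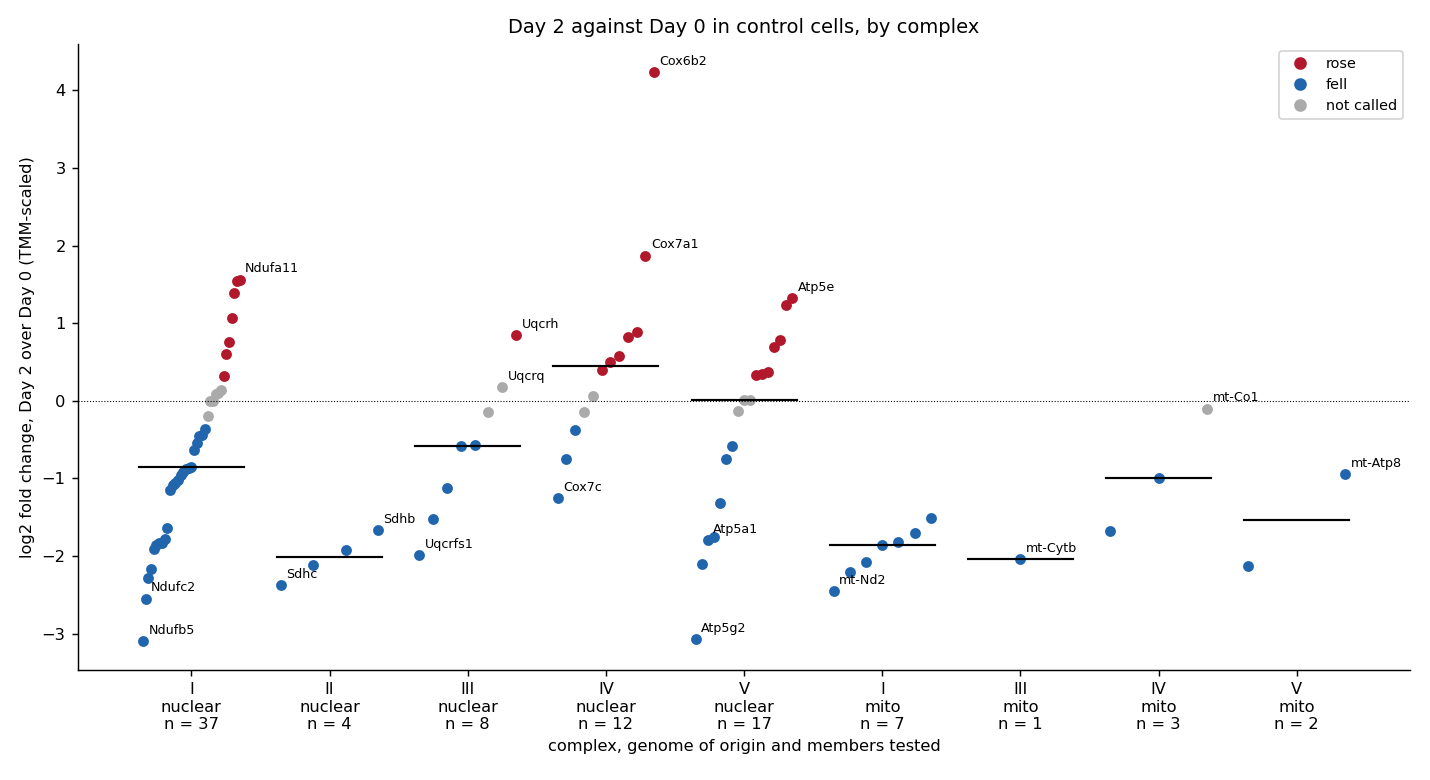
Fitted log2 fold change (Day 2 over Day 0, TMM-scaled) of the 91 tested members in controls, in columns by complex and genome, red for rose, blue for fell, grey for not called, with the column median as a line. Complex II lies wholly below 0, nuclear complex IV has its median at 0.45 with Cox6b2 far above, and mt-Co1 lies at -0.10.

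The largest rise among the members was that of a tissue-restricted subunit of complex IV. Cox6b2, known mainly as the testis form of subunit 6B, lies at chr7:4751792-4753094 (minus strand). It had 244.7, 252.7 and 274.9 CPM in Day 2 controls and 15.7, 12.6 and 12.9 CPM in Day 0 controls (log2 4.23, SE 0.17, edgeR adjusted p = 1.73e-16). It also rose in PCBP1 knockdown (4.76) and PCBP2 knockdown (4.38) cells, and under library totals its rise in controls was 2.59. The widely expressed form Cox6b1 (chr7:30616861-30626151, minus strand) had 96.6, 99.8 and 101.2 CPM at Day 2 and 108.9, 109.4 and 109.8 CPM at Day 0 in controls, a log2 change of -0.14 (SE 0.12) that was not called. In TPM the balance turned over: Cox6b2 stood at 433.9, 402.2 and 379.4 TPM and Cox6b1 at 169.7, 158.0 and 134.1 TPM in Day 2 controls, against 110.1, 84.2 and 81.7 TPM for Cox6b2 and 754.3, 740.7 and 698.9 TPM for Cox6b1 in Day 0 controls. Cox6b2 was 2.55 to 4.04 times Cox6b1 in the 9 Day 2 libraries and 0.112 to 0.165 times in the 9 Day 0 libraries.

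Other paired forms did not turn over. Cox4i2, a hypoxia-associated form of subunit 4 that the naming rule leaves out, rose by 4.19 (SE 0.39, edgeR adjusted p = 5.7e-10), yet remained at 2.25, 1.85 and 2.03 TPM in Day 2 controls and 0.304, 0.581 and 0.484 TPM in Day 0 controls. Cox4i1, the common form, stood at 183.3, 170.7 and 138.8 TPM at Day 2 and 822.2, 840.0 and 738.0 TPM at Day 0. Under TMM scaling Cox4i1 fell by only 0.23 on the log2 scale (SE 0.09, edgeR adjusted p = 0.021). Cox7a1, the heart and muscle form of subunit 7A, rose by 1.87 under TMM scaling but stood at 0.24, not called, under library totals (edgeR adjusted p = 0.44), and in TPM its days overlapped at 4.23 to 6.02 and 5.19 to 7.31. Of the ubiquitous forms Cox6a1 rose by 0.89, Cox8a by 0.50 and Cox7a2 by 0.40, and all 3 stood below 0 under library totals (-0.76, -1.14 and -1.24). Ndufa4l2, the hypoxia-associated relative of Ndufa4, fell by 2.28 from a low level, and Ndufa4 itself fell by 0.85.

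**Figure D4:**
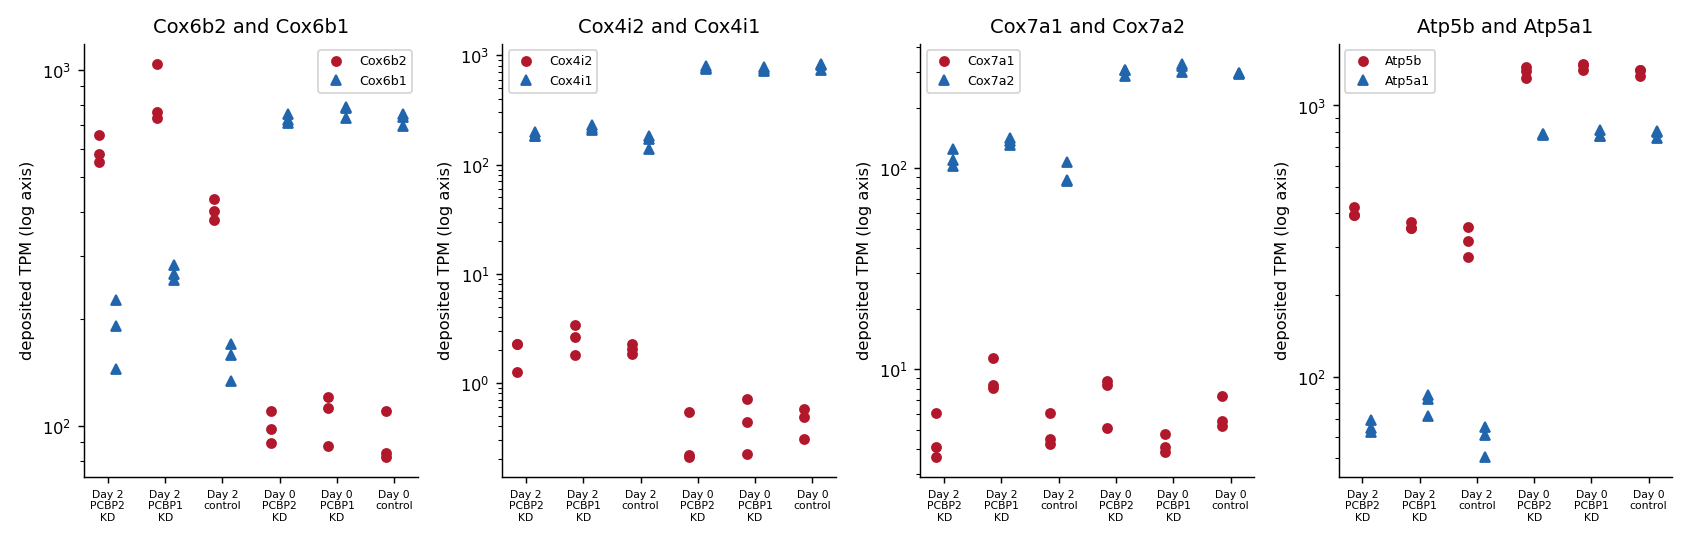
Deposited TPM (log axis) of 4 gene pairs in each library of the 6 groups, with the first-named gene as red circles and the second as blue triangles. Cox6b2 lies above Cox6b1 in every Day 2 library and below it in every Day 0 library, while Cox4i2 stays below Cox4i1 and Cox7a1 below Cox7a2 at both days, and the gap of Atp5b over Atp5a1 widens.

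Promoter sequence was set beside these changes for the 67 of 83 nuclear members found in the RefSeq promoter table (GRCm38.p6), over the 250 bases before the start. The palindrome of NRF1, a known activator of respiratory chain genes, occurred on either strand in 13 of the 67 promoters (19.4%) and in 4.23% of 27025 genes. CCGGAAG, a word of ETS factors such as GABPA, occurred in 12 (17.9%, against 7.83%), the word of YY1 in 1 (1.49%, against 0.359%), AGATAA, a word of GATA factors, in 6 (8.96%, against 11.4%), and CCNCNCCC, which covers the CACCC words of KLF factors and also many GC-rich words, in 36 (53.7%, against 48.5%). In controls, 4 rose and 8 fell of the 13 members with the NRF1 word, 5 rose and 4 fell of the 12 with CCGGAAG, 1 rose and 5 fell of the 6 with AGATAA, 9 rose and 20 fell of the 36 with CCNCNCCC, and the 1 with the YY1 word fell. Beside these stand the 22 that rose and 43 that fell of all 78 tested nuclear members. A match is a description of the letters and no evidence of binding.

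The promoters of the 2 subunit 6B genes are shown because their mRNAs exchanged rank, with Cox6a1 (which rose) and Sdhd (which fell) as promoters that hold both the NRF1 word and CCGGAAG. Each is written 5′ to 3′ along the gene's own strand, from RefSeq GRCm38.p6, and capitals mark matches to the 5 words on either strand. The windows are chr7:4753095-4753344 for Cox6b2, chr7:30626115-30626364 for Cox6b1, chr5:115348959-115349208 for Cox6a1 and chr9:50603850-50604099 for Sdhd, all on the minus strand.
Cox6b2 promoter: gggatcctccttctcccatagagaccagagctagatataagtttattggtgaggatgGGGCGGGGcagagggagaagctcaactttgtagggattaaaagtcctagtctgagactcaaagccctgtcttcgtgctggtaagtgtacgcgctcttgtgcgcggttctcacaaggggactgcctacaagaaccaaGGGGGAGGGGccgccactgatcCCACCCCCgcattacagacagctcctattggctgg
Cox6b1 promoter: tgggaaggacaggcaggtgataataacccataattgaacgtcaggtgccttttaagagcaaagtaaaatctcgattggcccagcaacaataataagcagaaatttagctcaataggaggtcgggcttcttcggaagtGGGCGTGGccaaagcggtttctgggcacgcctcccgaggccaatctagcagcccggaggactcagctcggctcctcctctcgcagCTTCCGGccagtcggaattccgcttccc
Cox6a1 promoter: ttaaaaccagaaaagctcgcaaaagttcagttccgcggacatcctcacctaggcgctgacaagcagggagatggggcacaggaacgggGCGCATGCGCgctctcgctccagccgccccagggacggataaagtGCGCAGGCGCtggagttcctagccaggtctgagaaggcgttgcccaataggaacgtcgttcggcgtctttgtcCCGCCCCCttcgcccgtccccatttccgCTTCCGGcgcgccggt
Sdhd promoter: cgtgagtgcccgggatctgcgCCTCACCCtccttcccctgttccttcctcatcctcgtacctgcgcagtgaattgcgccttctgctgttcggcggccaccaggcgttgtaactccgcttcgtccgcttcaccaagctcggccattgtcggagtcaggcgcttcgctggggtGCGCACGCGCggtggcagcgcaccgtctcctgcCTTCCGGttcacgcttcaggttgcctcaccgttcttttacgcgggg
The Cox6b2 window held 4 matches, all to CCNCNCCC and 2 of them overlapping, and neither AGATAA nor the NRF1 and ETS words. The Cox6b1 window held 1 match to CCNCNCCC and 1 to CCGGAAG.

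Genes that serve the respiratory chain were counted in lists drawn up with earlier results of these data known (control cells, TMM scaling, beside the 42.4% of all genes that fell and the 40.4% that rose). Of 78 mitochondrial ribosomal protein genes 75 fell and 3 rose (median -2.05). Of 44 assembly factor genes 36 fell and 4 rose (median -1.68), among them Cox10 (-3.68) and Cox15 (-2.74), which make the heme of cytochrome oxidase. Of 28 genes of mitochondrial transcription, RNA handling and DNA replication 23 fell and 4 rose (median -2.47). Fastkd2 fell by 4.11, and Polg2, which encodes a subunit of the mitochondrial DNA polymerase, rose by 3.17. The 14 genes of the tricarboxylic acid cycle gave 13 that fell and 1 that rose (median -2.32), and citrate synthase (Cs) fell by 2.53. The import machinery gave 19 fallers and 3 risers of 23 (median -1.83). Of 10 regulators of mitochondrial biogenesis 5 fell and 3 rose (median -0.66), including Pprc1 (-2.45), Gabpa (-1.36) and its partner Gabpb1 (2.00). The mitophagy list went the other way, with 7 risers and 1 faller of 9 (median 3.52): Ulk1 rose by 5.32, Sqstm1 by 4.41 and Pink1 by 3.96. Of 5 subunits outside the naming rule, Cycs (-2.02), Cyc1 (-1.64), Ndufab1 (-1.47) and Cox4i1 (-0.23) fell, and Cox4i2 (4.19) rose.

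Knockdown changed far fewer members than time did, and with smaller sizes. At Day 2, PCBP2 knockdown lowered 10 of the 91 tested members and raised none (all genes: 3.72% fell and 0.954% rose, edgeR). PCBP1 knockdown lowered 3 and raised 12 (all genes: 7.51% fell and 5.45% rose). The nuclear medians were -0.11 for PCBP2 knockdown and 0.14 for PCBP1 knockdown, and the mitochondrial medians -0.06 and 0.28, beside -0.01 and 0.02 over all genes. None of the 13 mitochondrial mRNAs was called in either, although 7 were higher with PCBP1 knockdown when the Day 2 control SCR-1 was left out, and 6 when PCBP1 hairpin 3 was. For those fits with a library left out, the share of all genes called is not given here. Both knockdown comparisons share the 3 Day 2 control libraries. Under library totals PCBP2 knockdown gave 5 members higher and 4 lower, with the median of all genes at 0.19 in place of -0.01. The share of all genes called under that scaling is not given here.

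Uqcrq, which encodes a small subunit of complex III (chr11:53427922-53430831, minus strand), fell in both. It had 23.6, 19.9 and 22.4 CPM in Day 2 PCBP2 knockdown libraries, 22.6, 20.02 and 22.6 CPM in Day 2 PCBP1 knockdown libraries and 29.2, 45.4 and 44.6 CPM in Day 2 controls. Both knockdown groups lay below all controls, of which SCR-1 was the lowest. The log2 change was -0.86 (SE 0.16, edgeR adjusted p = 0.00319) with PCBP2 knockdown and -0.87 (SE 0.16, edgeR adjusted p = 0.00068) with PCBP1 knockdown. Each call held under every alternative run, with edgeR adjusted p up to 0.041 and 0.00844 in a fit on the 9 Day 2 libraries alone. In TPM the PCBP1 knockdown libraries (46.8 to 53.6) touched the controls (53.0 to 68.8), while the PCBP2 knockdown libraries (43.2 to 48.7) did not.

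Atp5d, the delta subunit in the central stalk of ATP synthase, was the other member called down in both knockdowns. It had 71.0, 59.5 and 60.9 CPM with PCBP2 knockdown, 55.9, 67.1 and 64.3 CPM with PCBP1 knockdown and 89.8, 95.9 and 94.4 CPM in controls. The groups were apart, with log2 changes of -0.55 (SE 0.10, edgeR adjusted p = 0.00319) and -0.58 (SE 0.10, edgeR adjusted p = 0.000501). After removal of GC-dependent trends per library, neither was called (log2 -0.25, edgeR adjusted p = 0.156, and -0.20, edgeR adjusted p = 0.181), and on the 9 Day 2 libraries alone the PCBP2 knockdown change was not called either (edgeR adjusted p = 0.0745).

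Of the other members lowered by PCBP2 knockdown, Ndufs7, an iron-sulfur subunit of complex I, had 5.53, 5.997 and 4.15 CPM in knockdown libraries and 8.33, 11.1 and 8.61 CPM in controls, without overlap (log2 -0.84, SE 0.17, edgeR adjusted p = 0.00633). Ndufa7, an accessory subunit, fell by 0.59 (edgeR adjusted p = 0.00498). Both calls were lost on the 9 Day 2 libraries alone (edgeR adjusted p = 0.0784 and 0.101), and that of Ndufs7 also with the GC trend removed (edgeR adjusted p = 0.069). Ndufa4l2 (-1.40), Uqcr11 (-0.71), Atp5s (-0.65), Uqcr10 (-0.53) and Ndufv1 (-0.45) each lost their call under library totals, on the 9 Day 2 libraries alone and without PCBP2 hairpin 4. Their log2 changes were then -1.20, -0.51, -0.45, -0.33 and -0.26 under library totals, -1.38, -0.69, -0.63, -0.51 and -0.43 on the 9 libraries, and -1.25, -0.67, -0.52, -0.34 and -0.37 without hairpin 4. Ndufa4l2, Uqcr11, Uqcr10 and Ndufv1, but not Atp5s, also lost their calls with the GC trend removed. Of the 10 members, 4 were called without PCBP2 hairpin 4, 6 without SCR-2, 6 without LUC-1, 7 without SCR-1 and 7 without hairpin 3. On the 9 Day 2 libraries alone, 1 member was called (Uqcrq, beside 0.436% of all genes).

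Among the members raised by PCBP1 knockdown, Cox6b2 had 360.0, 522.3 and 388.6 CPM in knockdown libraries and 244.7, 252.7 and 274.9 CPM in controls (log2 0.72, SE 0.14, edgeR adjusted p = 0.00196). Ndufb5 had 9.74, 9.36 and 9.31 CPM in knockdown libraries and 6.60, 6.49 and 4.25 CPM in controls (log2 0.70, SE 0.14, edgeR adjusted p = 0.00148). Neither pair of groups overlapped, and both calls held under every alternative run, the 9 Day 2 libraries alone included. With PCBP2 knockdown Cox6b2 stood at 376.3, 266.9 and 302.7 CPM, of which 1 library lay below the highest control, and it was not called.

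The others raised were Ndufc2 (0.51), Atp5j (0.43), Atp5k (0.42), Cox6b1 (0.41), Atp5mpl (0.39), the complex II anchor Sdhd (0.38) and 4 more between 0.30 and 0.38. Ndufb11 (-0.36) was the third member lowered. The 15 calls came to 8 without LUC-1, 9 without PCBP1 hairpin 1, 10 without hairpin 4, 30 without hairpin 3 and 31 without SCR-1. Shares of all genes called with a library left out are not given here. A gain or loss of calls is therefore not read as particular to the members. On the 9 Day 2 libraries alone 4 members were called (Uqcrq, Atp5d, Ndufb5 and Cox6b2), beside 6.16% of all genes. The common dispersion was 0.0293 in those 9 libraries and 0.0169 in all 18. Under library totals, where the median of all genes was 0.25 in place of 0.02, 45 nuclear and 7 mitochondrial members were higher and 2 nuclear members lower. These counts are given without the share of all genes called under that scaling, and are not read as particular to the members.

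Erythroid markers fell in part in both knockdowns at Day 2. Of 8, 3 fell with PCBP2 knockdown (median -0.37) and 7 with PCBP1 knockdown (median -0.40), with summed levels of 353900 to 429700 CPM, 345900 to 367800 CPM and 433200 to 604600 CPM in PCBP2 knockdown, PCBP1 knockdown and control libraries at Day 2. Progenitor markers summed to 22.2 to 28.9, 23.0 to 27.8 and 21.3 to 27.9 CPM in the same groups, and 1 of the 4 rose with PCBP1 knockdown. Of markers of other cells, 1 of 4 megakaryocyte genes fell with each knockdown, and with PCBP1 knockdown 1 of 3 tested endothelial genes fell and 1 of 2 tested lymphoid genes rose. Lymphoid genes summed to 8.13 to 13.6, 12.99 to 19.9 and 7.50 to 9.55 CPM in PCBP2 knockdown, PCBP1 knockdown and control libraries at Day 2. The part of marker changes in the member changes was not tested.

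**Figure D5:**
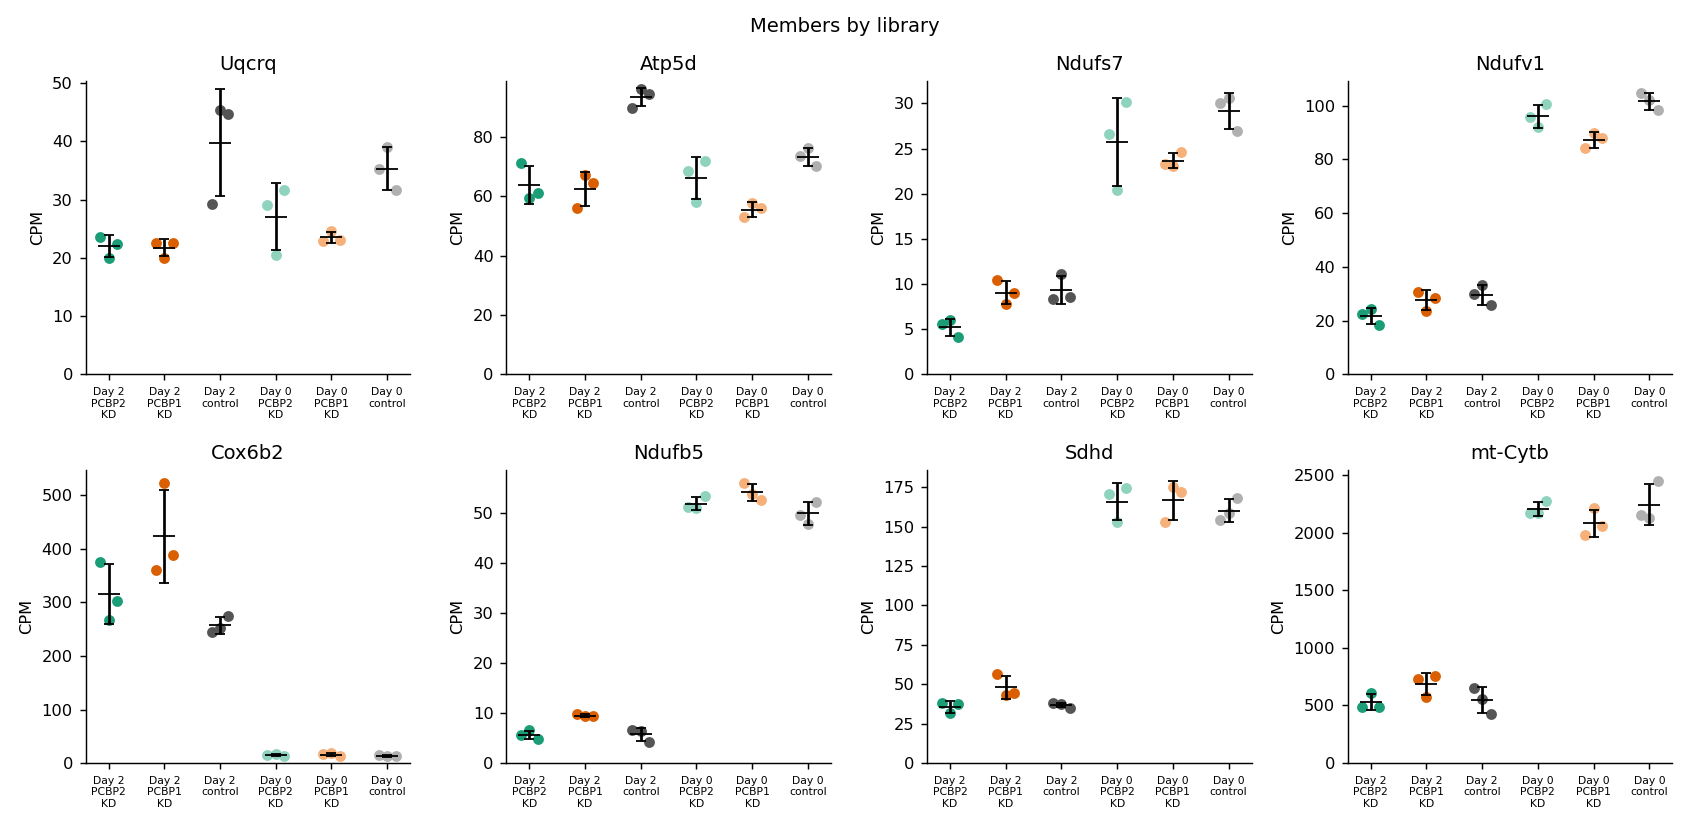
Normalised read count (CPM) of 8 members in each library (points) with group mean and SD (bars, n = 3). Both Day 2 knockdown groups lie below the Day 2 controls for Uqcrq and Atp5d, PCBP1 knockdown libraries lie above the controls for Cox6b2 and Ndufb5, and the days are far apart for Cox6b2, Ndufb5, Sdhd, Ndufv1, Ndufs7 and mt-Cytb.

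Set directly against each other at Day 2, PCBP2 knockdown cells had less of 25 of the 91 tested members than PCBP1 knockdown cells and more of none (all genes: 7.5% lower and 4.83% higher, edgeR). The median was -0.25 for nuclear and -0.36 for mitochondrial members, beside -0.01 over all genes. Complex I gave 12 of 37 nuclear members and complex II all 4 (median -0.41). Complex III gave 2 of 8, complex IV 3 of 12 and complex V 3 of 17 nuclear members, and mt-Co3 was the single mitochondrial call. On the 9 Day 2 libraries alone, only Ndufa4l2, Atp5s and Ndufs7 were called. The fit over all 18 libraries pools the days, whose common dispersions were 0.0293 at Day 2 and 0.00749 at Day 0 when fitted alone. Its Day 2 p-values therefore rest in part on the smaller Day 0 spread. Of the 8 erythroid markers none was called in this comparison (median 0.11). Among markers of other cells, 1 of 4 megakaryocyte genes and 1 of 2 tested lymphoid genes were lower and 1 of 3 tested endothelial genes was higher with PCBP2 than with PCBP1 knockdown, and their part in the member differences was not tested.

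Ndufs7 had 5.53, 5.997 and 4.15 CPM with PCBP2 knockdown and 10.4, 7.77 and 8.996 CPM with PCBP1 knockdown (log2 -0.79, SE 0.17, edgeR adjusted p = 0.00472). Atp5s had 8.32, 7.10 and 5.35 CPM and 16.2, 11.7 and 11.2 CPM in the same groups (log2 -0.91, SE 0.18, edgeR adjusted p = 0.0024), and Ndufa4l2, at 0.699, 0.789 and 0.492 CPM against 2.67, 2.33 and 1.21 CPM, had a log2 difference of -1.64 (SE 0.38, edgeR adjusted p = 0.00719). All 3 were without overlap and held under every alternative run, and they were the members called on the 9 Day 2 libraries alone (beside 3.43% of all genes). Ndufa4l2 had only 247 estimated reads over those 9 libraries. It shares 2.9% of its exon bases with Shmt2 (15677 reads) on the opposite strand, and the part of this was not tested.

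Ndufb5 (-0.75), Ndufc2 (-0.65) and Ndufs3 (-0.50) of complex I, with Sdha (-0.41), kept their calls whichever library was left out and lost them on the 9 Day 2 libraries alone. Sdha had 46.1, 48.4 and 47.1 CPM with PCBP2 knockdown and 67.3, 56.2 and 65.0 CPM with PCBP1 knockdown, and the controls, at 57.8, 51.4 and 49.4 CPM, lay above every PCBP2 knockdown library and overlapped the PCBP1 knockdown libraries. Sdhd (-0.43) had 37.8, 31.5 and 37.8 CPM with PCBP2 knockdown and 56.5, 43.0 and 44.7 CPM with PCBP1 knockdown, without overlap, and was not called when PCBP1 hairpin 1 was left out. Sdhb (-0.37) and Sdhc (-0.41) each lost their call without PCBP1 hairpin 1 or 4 or PCBP2 hairpin 1 or 4, and under other omissions too, and for Sdhc 1 PCBP1 knockdown library (13.4 CPM) lay among the PCBP2 knockdown libraries (12.95 to 14.2 CPM).

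mt-Co3 had 872.8, 863.8 and 673.2 CPM with PCBP2 knockdown and 1288, 887.0 and 1065 CPM with PCBP1 knockdown (log2 -0.43, SE 0.13, edgeR adjusted p = 0.0309). With its chromosome 1 copy added the difference was -0.25 and not called (edgeR adjusted p = 0.107), and it was not called without PCBP1 hairpin 1 (edgeR adjusted p = 0.166), without PCBP1 hairpin 4 (edgeR adjusted p = 0.0597) or without PCBP2 hairpin 4 (edgeR adjusted p = 0.122). The 25 calls became 11 without PCBP2 hairpin 4, 16 without PCBP1 hairpin 1, 16 without the Day 0 control SCR-1, 44 without PCBP1 hairpin 3, 45 without the Day 2 control LUC-1 and 38 without the Day 2 control SCR-1. Here too the shares of all genes called with a library left out are not given.

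The related lists ran the same way in part. Of 78 mitochondrial ribosomal protein genes 15 were lower and 1 higher with PCBP2 than with PCBP1 knockdown (median -0.28), of 14 tricarboxylic acid cycle genes 4 were lower (median -0.19), and of 44 assembly factors 5 were lower and 3 higher (median -0.04), beside the 7.5% and 4.83% of all genes.

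At Day 0 no member was called by edgeR for PCBP2 knockdown (all genes 0.0229% called), for PCBP1 knockdown (0.891%) or between the 2 knockdowns (0.257%). Without adjustment 2, 14 and 5 members had p under 0.05, and DESeq2 called 0, 3 and 0. The members nearest to a call with PCBP1 knockdown were Atp5d (log2 -0.40, SE 0.10, edgeR adjusted p = 0.054) and Uqcrq (log2 -0.59, SE 0.15, edgeR adjusted p = 0.0639). Uqcrq had 22.8, 24.7 and 23.0 CPM in Day 0 PCBP1 knockdown libraries and 35.2, 39.0 and 31.7 CPM in Day 0 controls, and Day 0 PCBP2 knockdown libraries had 29.1, 20.5 and 31.6 CPM. The PCBP1 knockdown group lay clear of the controls, and the highest PCBP2 knockdown library (31.6 CPM) lay just under the lowest control (31.7 CPM).

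On the 9 Day 0 libraries alone, whose common dispersion was 0.00749, 10 members were called with PCBP1 knockdown, and all 10 fell. Of all genes 7.04% were called in either direction, and the share that fell is not given here. The 10 members are listed next. They were Uqcrq (-0.58), Ndufb7 (-0.44), Atp5d (-0.39), Ndufa11 (-0.39), Uqcr10 (-0.34), Ndufs8 (-0.33), Ndufb10 (-0.30), Atp5g2 (-0.24), Atp5g1 (-0.21) and Ndufv1 (-0.21). No mitochondrial mRNA was among them. With PCBP1 knockdown at Day 2, in the fit on all 18 libraries, none of the 10 was called higher, and Uqcrq and Atp5d were called lower. Atp5g2 (0.28), Atp5g1 (0.10) and Ndufb10 (0.01) were higher there without a call. Ndufs8 (-0.06), Ndufv1 (-0.10), Ndufb7 (-0.15), Uqcr10 (-0.19) and Ndufa11 (-0.29) were lower without a call. The GC content of these 10 genes ran from 54.9% (Uqcrq) to 61.1% (Atp5d). That of all tested nuclear members ran from 39.0% (Atp5s) to 61.1%. The fit on the 9 Day 0 libraries was not repeated with the GC trend removed, so the part of GC content was not tested. The same fit called no member for PCBP2 knockdown (0.038% of all genes) or between the knockdowns (1.98%).

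The change of a knockdown effect between the days was called by edgeR for no member, either for PCBP2 (0% of all genes called) or for PCBP1 (0.4%). Unadjusted p was under 0.05 for 8 and 21 members, and DESeq2 called 1 and 2. Ndufc2 came nearest for PCBP1 (difference of log2 changes 0.71, edgeR adjusted p = 0.0644). The Day 2 calls are therefore not shown to differ from the Day 0 effects.

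Splicing of members was read from the authors' deposited tables of local splicing variations, which compare pooled libraries and give no replicate error. A variation was counted as called where the authors' posterior probability of a change in percent spliced in of at least 0.2 was at least 0.95. None of the 489 member variations (73 genes) was called for Day 2 PCBP2 knockdown (0.0718% of all variations in that table), none of 486 (74 genes) for Day 2 PCBP1 knockdown (0.191%), none of 509 (77 genes) for Day 0 PCBP2 knockdown (0.0115%) and none of 505 (77 genes) for Day 0 PCBP1 knockdown (0.0573%). In the authors' deposited table for Day 2 PCBP1 knockdown, the highest probability among members was 0.914, for a variation of Atp5o with an expected change of -26.0 percentage points (knockdown minus control). Ndufb4 followed in the authors' deposited table for Day 0 PCBP2 knockdown, with a probability of 0.71 (-23.8 points).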

How the data were processed

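RNA from 18 libraries was sequenced after TruSeq preparation, and the protocol given in the labels does not state strandedness. The submitters' processing notes name FastQC 0.11.9, Trim Galore 1.46.0, STAR 2.5.3a, SAMtools 1.9, Salmon 0.11.3 and GRCm38. The authors' deposited Salmon tables list, per the file headers, estimated counts and TPM for 111706 transcripts, of which 110403 matched GENCODE M21. The other 1303 held 0.275% to 0.579% of reads. The authors' deposited splicing tables give changes in percent spliced in and the probability of a change between pooled groups, per the file headers.

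Estimated counts were summed per gene and rounded. The 17500 genes past edgeR's filter were fitted over all 18 libraries (6 groups, 12 residual degrees of freedom) by edgeR 4.0.16 (R 4.3.3) with TMM scaling, robust quasi-likelihood tests and Benjamini-Hochberg adjustment over all genes, and called at adjusted p under 0.05. Shares of reads were tested by exact permutation. Alternatives were library totals, TMM without globin and mitochondrial genes, no filter, a GC correction, the 9 libraries of 1 day, DESeq2 1.42.0, a replicate block, each library left out and, chosen after seeing the data, addition of reads of pseudogene copies. Scripts were tested on simulated data. Members and lists were chosen with earlier results of these data known. Named members were the 13 mitochondrial genes, up to 8 called members each way per comparison, paired forms and iron-sulfur or heme subunits, with exceptions stated; some results that the rule would name are not reported here. Hairpin numbers paired the days in PCBP2 knockdown cells (correlations of deviations 0.162, 0.253 and 0.189), and there 78 members were called with and without the block.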

Additional observations from a re-analysis of the deposited data

How the results depend on the processing

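The 3 differences in share or ratio between the days kept their direction and their exact p under every alternative run. Of 84 changes of named members, 8 of the 41 tested within a day kept their call when only the 9 libraries of that day were fitted and 33 lost it. The cause was not tested, but that fit has fewer samples and, at Day 2, a common dispersion of 0.0293. Members called for PCBP1 knockdown at Day 2 numbered 15, with 54 under library totals, 4 on the 9 libraries of that day, 24 with DESeq2 and 8 to 31 with a library left out. For PCBP2 knockdown at Day 2 the 10 became 4 with the GC trend removed, 1 on the 9 libraries and 4 to 11 with a library left out. PCBP2 against PCBP1 knockdown at Day 2 gave 25, 3 on the 9 libraries, 47 with DESeq2 and 11 to 45 with a library left out. PCBP1 knockdown at Day 0 gave 0, 2 without a filter, 10 on the 9 libraries, 3 with DESeq2 and 0 to 2 with a library left out. Its change between the days gave 0, 10 under library totals, 1 without a filter, 2 with DESeq2 and 0 to 3 with a library left out, and that of PCBP2 knockdown 0, and 1 with DESeq2. Among these alternatives, the share of all genes called is given only for the fits on the 9 libraries of a day. Counts under the others are therefore not read as particular to the members. Among single named members, 12 lost their call with the GC trend removed, 9 under library totals, 5 without a filter and 1 with DESeq2. Library totals reversed 9 rises between the days in controls: Ndufa11 (-0.075), Ndufb11 (-0.096), Ndufa6 (-0.251), Atp5e (-0.318), Atp5s (-0.404), Ndufa1 (-0.567), Cox6a1 (-0.755), Cox8a (-1.135) and Cox7a2 (-1.238).

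Small differences in shares were unstable, and none of them could pass the test. In percentage points, the mitochondrial difference of PCBP2 knockdown at Day 2 was -0.00719 without globin reads and -0.0299 to 0.0737 with a library left out, and that of PCBP1 knockdown at Day 0 -0.0119 to 0.107. The nuclear difference of PCBP2 knockdown at Day 0 was -0.0139 to 0.00982 with a library left out. In TPM the nuclear difference at Day 0 was 0.0246 for PCBP1 knockdown and -0.0630 for PCBP2 against PCBP1 knockdown. The log2 ratio of mitochondrial to nuclear reads at Day 2 differed by -0.0328 in TPM and -0.0521 to 0.160 with a library left out for PCBP1 knockdown, and by -0.206 to 0.0358 for PCBP2 knockdown.

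A replicate block on hairpin numbers left 77, 75 and 78 members called between the days in control, PCBP1 and PCBP2 knockdown cells (77, 76 and 78 without it). Between the knockdowns at Day 2, where same-numbered libraries did not all deviate together (correlations 0.05, -0.155 and 0.118), the block gave 17 in place of 25.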

Other observations

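Genes of the other lists that the naming rule picked in the knockdowns were spread over functions. With PCBP1 knockdown at Day 2, Sco2, a copper chaperone for cytochrome oxidase, fell (-1.80), as did Esrra (-1.11), a nuclear receptor that regulates mitochondrial genes, and Ppard (-0.84), while Fastkd2 (0.93), Fundc1 (0.78), Tomm6 (0.71) and Coa5 (0.62) rose. With PCBP2 knockdown at Day 2, Ppard (-0.73), Fastk (-0.73), Cox14 (-0.65) and Pink1 (-0.44) fell, and Trmt10c (0.62), a component of mitochondrial RNase P, rose. Both sets are edgeR calls at an adjusted p under 0.05 and share their 3 controls.

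The mitochondrial ribosomal RNAs are not among the members. mt-Rnr1 took 369.7 to 601.8 reads-per-million at Day 2 and 332.3 to 476.5 at Day 0, and mt-Rnr2 took 634.2 to 1040 at Day 2 and 1098 to 1311 at Day 0. The ranges overlapped for mt-Rnr1 and not for mt-Rnr2. How much of this RNA the library preparation kept was not tested.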
